A study of Caenorhabditis elegans with 6 samples.

Results

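The astacins are a family of secreted zinc-dependent proteases, and their transcripts were followed here in adult Caenorhabditis elegans that had been raised with or without tyrosol. Members were taken by name: every gene called nas (nematode astacin) with a number in the array annotation, and hch-1, dpy-31, toh-1 and toh-2, which belong to the family and carry older names. The gene table used for names lists 40 such genes, 39 of them protein-coding, and the arrays measured 36 of these among 17118 genes in all. Not measured were nas-3, nas-23 and the pseudogene nas-40, which have no probe set, and nas-2, whose only probe set names a second gene as well. The name toh-2 matched no entry. No filter on low values was applied, so all 36 were tested.

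Whole worms of the strain fer-15(b26) were compared. This mutant makes sperm that cannot fertilise at a restrictive temperature, and both groups carried the mutation, were fed E. coli OP50 and grew at 25 °C on agar with 0.1% ethanol. The treated group was exposed to 250 µM tyrosol, a phenolic alcohol of olive oil, from the egg until day 4 of adulthood, and the control group received the vehicle alone. Each group had 3 arrays of the Affymetrix C. elegans design, and since the labels do not say that the replicates were separate cultures, p-values measure only the spread between these arrays. Values are log2 signals, summarised per probe set by the authors with RMA, a robust average over the probes. Across the 6 arrays the medians ran from 2.57 to 2.61. Tyrosol replicate 2 deviated most from its group mean, with an SD of 0.21 over all probe sets against 0.11 to 0.15 on the other arrays, and each result that rests on it is also given without it.

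Astacins are made as inactive proenzymes. Removal of the propeptide frees an active site in which histidines hold a zinc ion, and the mature enzymes cut proteins of the extracellular matrix. In vertebrates the best-known members are BMP1 and the tolloids, which trim procollagens and release growth factors, and the meprins. The nematode has many more astacins than vertebrates, and those with a known role act where a worm builds or sheds a matrix: in the making of the collagen cuticle, in the moult, in the grinder of the pharynx and at hatching from the eggshell.

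Among the 36 genes, hch-1 was the only one called as changed between tyrosol and control worms by the rank product, the test the submitters name. HCH-1 is the hatching enzyme, a protease with which the embryo weakens its eggshell, and it is also needed for the normal migration of Q neuroblasts. Its signal was 5.09, 5.31 and 4.94 in tyrosol replicates 1, 2 and 3, against 3.71, 4.45 and 3.85 in control replicates 1, 2 and 3. Every tyrosol array read higher than every control array, and control replicate 2 stood closest to the tyrosol arrays. On average hch-1 read 5.11 ± 0.18 in tyrosol worms and 4.00 ± 0.39 in control worms (log2 signal, SD, n = 3 each). The difference of 1.11 (SE 0.19, 95% interval 0.67 to 1.56) is a 2.16-fold rise, with an estimated false discovery rate of 0.0022. Of the 17118 genes only 40 had a larger positive difference. In a whole-worm sample more cells of a type and more RNA per cell cannot be told apart.

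The other common test gave a more guarded result for hch-1. In a single simulated data set, with noise drawn independently for each array, the rank product made more false calls than its threshold allows, and limma did not. Such noise leaves out the deviations that the real arrays share, so it cannot decide between the tests for hch-1. Limma, which sets each difference against a moderated spread between arrays, put its adjusted p at 0.073 over all 22548 probe sets, so limma called 0 of the 36 genes, with 3 at an unadjusted p under 0.05. With the replicate number as a block the limma adjusted p of hch-1 was 0.016, and without control replicate 2 it was 0.017 at a difference of 1.33. The rank product called hch-1 higher without each array in turn, with differences from 0.97 to 1.33 and false discovery rates from 0.00098 to 0.034. Without tyrosol replicate 2 the difference was 1.01. Within the same-numbered pairs of arrays it was 1.38, 0.86 and 1.09 for replicates 1, 2 and 3. The single probe set of hch-1 carries the suffix _s_at, which marks probes shared by several transcripts. No other gene of the gene table overlaps hch-1 on the chromosome. Whether its probes also match transcripts of genes elsewhere was not tested.

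Against all genes, a count of 1 in 36 has to be read beside how often a gene was called at all. The rank product called 0.865% of the 17118 genes higher and 0.0234% lower, and of the astacins it called 1 higher and 0 lower. Limma called 0.339% of all genes higher and 0.0117% lower. In 3 astacin genes (hch-1, dpy-31 and nas-14) all tyrosol values lay above all control values, beside 6.92% of all genes. In 4 (nas-5, nas-7, nas-12 and nas-20) all tyrosol values lay below, beside 6.78% of all genes. As shares of the family these are 8.33% and 11.1%, not far from those of all genes. An unadjusted limma p under 0.05 was found for 8.33% of the astacins and 7.21% of all genes.

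**Figure D1:**
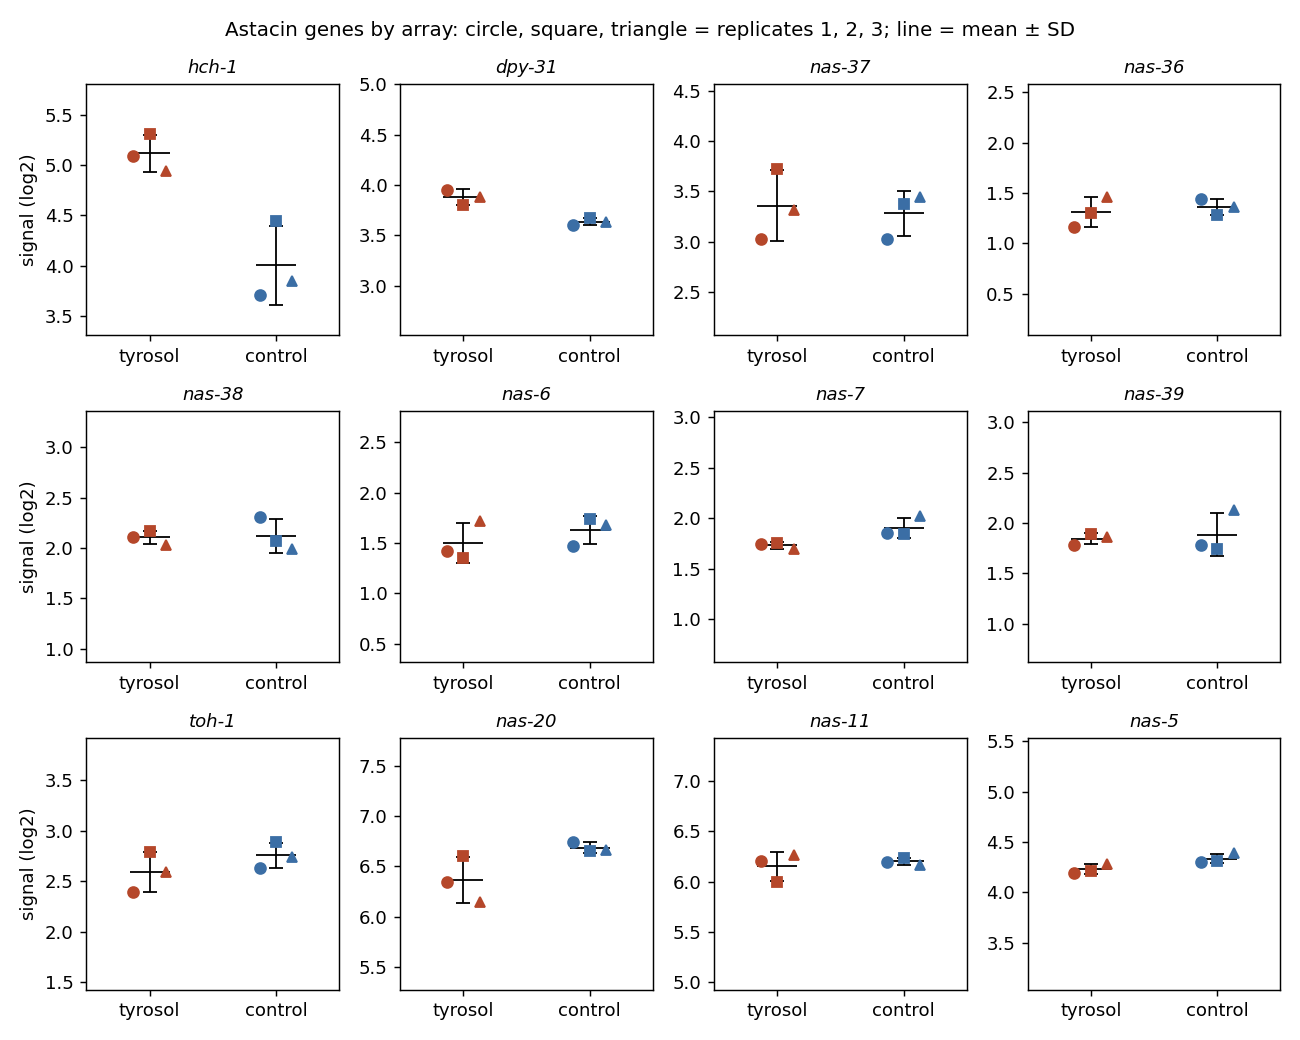
Signal of 12 astacin genes (log2, y axis, all panels spanning the same range) in the 3 tyrosol and 3 control arrays. Points are arrays, with replicates 1, 2 and 3 as circle, square and triangle, and the bars give the mean ± SD. The tyrosol arrays of hch-1 lie between 4.94 and 5.31, all above its control arrays, while in the other 11 panels the group means differ by at most 0.32.

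The astacin that finishes collagen came next among the genes with a known role. DPY-31 is the worm's procollagen C-proteinase, an epidermal enzyme that cuts the C-terminal propeptide of cuticle collagens such as SQT-3, and its loss makes short, fat worms. On its brightest probe set dpy-31 read 3.96, 3.80 and 3.89 in tyrosol replicates 1 to 3, against 3.60, 3.67 and 3.63 in control replicates 1 to 3. The groups did not overlap, and the spread within each was narrow. The difference was 0.24 (SE 0.089, limma adjusted p = 0.56) and was not called, with a 95% interval of 0.040 to 0.45, which ends well below that of hch-1. A second probe set of dpy-31 gave 3.53, 3.03 and 3.35 in tyrosol worms, against 3.06, 2.84 and 2.79 in control worms, a difference of 0.41 (SE 0.14). Here the lowest tyrosol array fell just under the highest control array. The last one, with 3.03, 2.39 and 3.01 against 2.94, 2.38 and 2.64, differed by 0.15 (SE 0.20), less than its own spread. All 3 probe sets of dpy-31 thus gave a positive difference, and none was called.

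Collagens that work with DPY-31 were read as well. For dpy-17, a cuticle collagen gene that interacts genetically with dpy-31, the signal was 5.79, 5.97 and 5.80 in tyrosol worms, against 5.24, 5.51 and 5.19 in control worms. The groups did not overlap, and the difference of 0.54 (SE 0.12, limma adjusted p = 0.15) was not called by either test. The substrate gene sqt-3 was read on a pair of probe sets that did not give the same result. Its brightest, with the suffix _x_at of probes that may bind other transcripts, gave 9.66 ± 0.061 in tyrosol worms and 9.57 ± 0.10 in control worms (log2, SD, n = 3 each), with overlapping groups. The other, without such a suffix, read 6.70, 7.24 and 6.71 in tyrosol worms, against 5.86, 6.42 and 6.06 in control worms. Here the groups did not overlap, and the difference of 0.77 (SE 0.19, limma adjusted p = 0.25) was called higher by the rank product, at a false discovery rate of 0.023, and not by limma. The mean of both probe sets differed by 0.43 and was not called.

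Enzymes of the moult showed no called difference. NAS-37 acts in the shedding of the old cuticle, NAS-36 is needed to complete the moult, and NAS-38 acts in the moult and in the sleep-like state that goes with it. The signal of nas-37 was 3.03, 3.72 and 3.32 in tyrosol replicates 1 to 3, against 3.02, 3.37 and 3.45 in control replicates 1 to 3. Its groups overlapped fully, and the difference of 0.077 (SE 0.19) turned to -0.11 without tyrosol replicate 2 and to -0.052 without control replicate 1. For nas-36 the tyrosol arrays read 1.16, 1.30 and 1.47 and the control arrays 1.44, 1.28 and 1.37. The difference was -0.054 (SE 0.11) at a signal near the bottom of the scale. For nas-38 they read 2.11, 2.17 and 2.03 in tyrosol worms and 2.31, 2.07 and 1.99 in control worms, a difference of -0.015 (SE 0.11). Both genes again had overlapping groups.

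The pair of astacins that shape the pharyngeal grinder, the cuticle plates with which the worm crushes bacteria, were dim. In tyrosol worms nas-6 read 1.42, 1.35 and 1.72, against 1.47, 1.74 and 1.68 in control worms, with a difference of -0.13 (SE 0.13). For nas-7 the values were 1.74, 1.76 and 1.69 in tyrosol worms and 1.85, 1.84 and 2.02 in control worms. Here all tyrosol arrays read below all control arrays, by 0.17 on average (SE 0.092, limma adjusted p = 0.76), and neither gene was called.

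Relatives of tolloid did not differ beyond their spread. NAS-39 has the domain order of vertebrate BMP1, and toh-1 is named as a tolloid homologue. The arrays of nas-39 gave 1.79, 1.89 and 1.86 with tyrosol and 1.78, 1.74 and 2.13 in the controls, a difference of -0.039 (SE 0.12). On its brightest probe set toh-1 gave 2.39, 2.79 and 2.59 with tyrosol and 2.64, 2.89 and 2.74 in the controls, a difference of -0.17 (SE 0.13). The other 2 probe sets of toh-1 differed by 0.055 (SE 0.12) and 0.19 (SE 0.11), so the sign for this gene depends on the probe set.

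**Figure D2:**
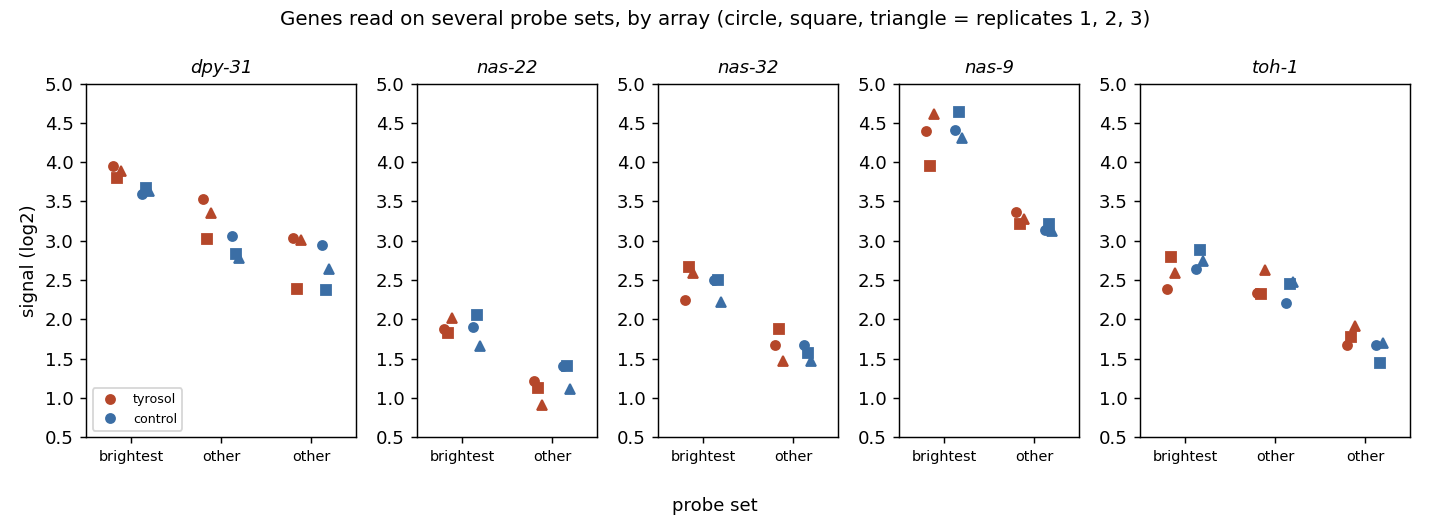
Signal (log2, y axis) of the 5 astacin genes read on more than 1 probe set, tyrosol arrays in red to the left of control arrays in blue, with replicates 1, 2 and 3 as circle, square and triangle. The 3 probe sets of dpy-31 gave differences of 0.24, 0.41 and 0.15, while those of toh-1 and of nas-9 differed in sign.

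Signals of different probe sets are not amounts of RNA that can be ranked, since each has its own probe response, but they show how far each reading stands above the floor of the array. Only 8 of the 36 astacin genes had a mean over the arrays above 2.58, the median of all probe sets. They were nas-20, nas-11, hch-1, nas-9, nas-5, dpy-31, nas-37 and toh-1. The other 28 lay below it, with a median over all 36 of 1.87, and 50.2% of all genes did so. The differences of these 28 ran from -0.24 to 0.26.

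Of the brightest members, nas-20 had the most negative difference of the family. It read 6.35, 6.60 and 6.15 in tyrosol replicates 1 to 3, against 6.75, 6.65 and 6.66 in control replicates 1 to 3. All tyrosol arrays were below all control arrays, though tyrosol replicate 2 by little. The difference of -0.32 (SE 0.12, 95% interval -0.61 to -0.036, limma adjusted p = 0.61) was not called by either test. Leaving out single arrays moved it between -0.44 and -0.21. The neighbours of nas-20 on chromosome V are nas-21 and nas-22, which follow it directly in the gene order and differed by -0.026 (SE 0.094) and 0.031 (SE 0.12) at signals of 1.42 and 1.89. A second probe set of nas-22 gave -0.23 (SE 0.12).

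The signal of nas-11 was 6.21, 5.99 and 6.26 in tyrosol worms, against 6.20, 6.24 and 6.17 in control worms. Tyrosol replicate 2 was the lowest of these 6 closely spaced values, and the difference was -0.047 (SE 0.10). The steadiest gene of the family was nas-5, with 4.19, 4.22 and 4.28 in tyrosol worms and 4.30, 4.31 and 4.39 in control worms. Its SD within groups, 0.047, was the lowest of the 36, and its groups did not overlap, at a difference of -0.11 (SE 0.086, limma adjusted p = 0.85). For nas-9 the arrays read 4.40, 3.95 and 4.61 with tyrosol and 4.41, 4.64 and 4.30 in the controls. Tyrosol replicate 2 was the low one, the difference was -0.14 (SE 0.17), and without that array it was 0.049. A second probe set of nas-9 differed by 0.13 (SE 0.090).

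Several other genes toward the edges of the family were dim. After hch-1 the largest positive difference was that of nas-14, which read 1.14, 1.15 and 1.45 in tyrosol worms, against 0.93, 1.11 and 0.91 in control worms. The groups did not overlap, the difference was 0.26 (SE 0.12, limma adjusted p = 0.69), and the signal was among the lowest of the arrays. For nas-31 the values were 2.22, 2.03 and 2.34 with tyrosol and 1.92, 1.88 and 2.13 in the controls, a difference of 0.22 (SE 0.12). In nas-32 they were 2.24, 2.67 and 2.58 with tyrosol and 2.50, 2.51 and 2.22 in the controls, a difference of 0.092 (SE 0.14) that all but vanished, at -0.0013, without control replicate 3. Its second probe set gave 0.10 (SE 0.12).

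On the negative side nas-12 read 2.08, 2.22 and 1.85 in tyrosol worms and 2.26, 2.31 and 2.29 in control worms. Its control arrays were tight, its groups did not overlap, and the difference was -0.24 (SE 0.11, limma adjusted p = 0.73). For nas-24 the values were 1.33, 1.85 and 1.74 with tyrosol and 1.51, 2.14 and 1.81 in the controls. Replicate 1 was the lowest and replicate 2 the highest in both groups, and the difference was -0.18 (SE 0.19). In nas-17 they were 0.995, 1.002 and 1.181 with tyrosol and 1.101, 1.356 and 1.233 in the controls, with a difference of -0.17 (SE 0.11). The genes on either side of nas-17 on chromosome V are nas-18, at -0.031 (SE 0.12), and nas-19, at -0.098 (SE 0.10).

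The remaining 17 genes were nas-1, nas-4, nas-8, nas-10, nas-13, nas-15, nas-16, nas-18, nas-19, nas-21, nas-22, nas-25, nas-27, nas-28, nas-29, nas-30 and nas-33. Their mean signals ran from 1.10 to 2.27, all below the median probe set, and their differences from -0.16 to 0.031. In all 17 the groups overlapped, and the limma adjusted p was 0.81 or more.

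Taken by its median, the family differed by -0.050 between tyrosol and control worms, beside -0.017 for all genes. A difference below 0 was found in 27 of the 36 astacin genes, a share of 75%, and in 55.3% of all genes, 54.7% among those below the median probe set. This count was not tested, since genes read on the same 6 arrays share each array's shift. Without hch-1, the family lay on average 0.12 below the control mean in tyrosol replicate 1, at -0.021 in tyrosol replicate 2 and at -0.017 in tyrosol replicate 3, while control replicates 1, 2 and 3 stood at -0.031, 0.046 and -0.015. Tyrosol replicate 1 thus carried most of the shift, and without it the family's median difference was -0.024.

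The arrays were precise enough to bound most of these differences. The median SE over the family was 0.12 on the log2 scale, like that of all genes at 0.11. For all 35 genes other than hch-1, each on its brightest probe set, the 95% interval of the difference lay between -1 and 1. That is less than a doubling or halving of the signal, and for 29 of the 35 the interval lay between -0.5 and 0.5. The widest bounds on these probe sets were -0.61 and 0.53. Other probe sets, such as that of dpy-31 at 0.41 (SE 0.14), were not counted. For the 28 dim genes such an interval bounds the change in signal and not the change in RNA, since signals near the floor understate differences. The SD within groups had a median of 0.14 over the family and was highest in hch-1, at 0.31. Its 3 control arrays spanned 0.74 and its 3 tyrosol arrays 0.37, where the median gene of the family spanned 0.19 over the control arrays and 0.29 over the tyrosol arrays.

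**Figure D3:**
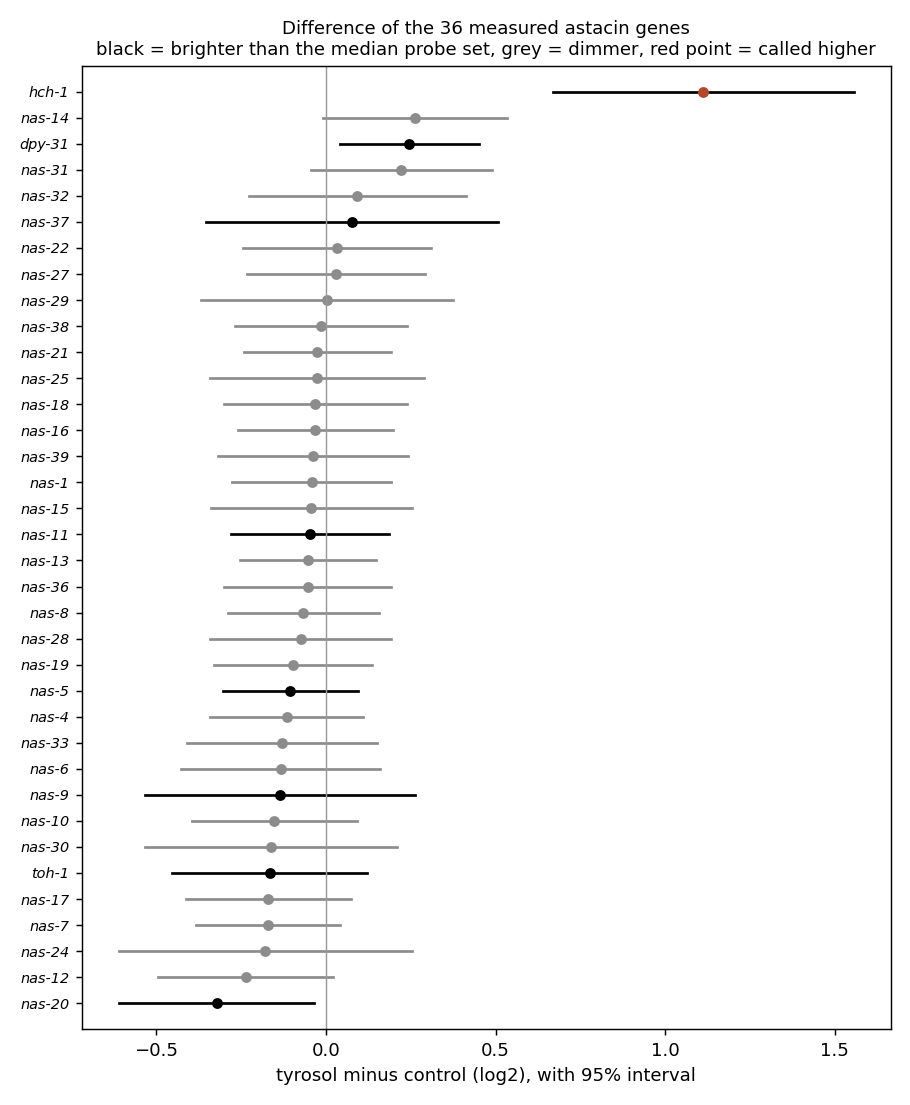
Difference between tyrosol and control worms (log2, x axis) of the 36 measured astacin genes, with the 95% interval of limma. Black marks genes brighter than the median probe set and grey those below it, and the red point is hch-1, the gene called higher. On the brightest probe set of each gene, the interval of hch-1 begins at 0.67, above the upper bounds of the other 35, which reach at most 0.53. Other probe sets, such as that of dpy-31 at 0.41 (SE 0.14), are not shown, and the gap is not stated for them.

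Genes that act beside the astacins were followed through lists written with earlier results of these data known. Of 36 measured moulting genes the rank product called 3 higher and 0 lower, beside 0.865% and 0.0234% of all genes. The list's median difference was 0.19, or 0.075 with the mean of each gene's probe sets. An unadjusted limma p under 0.05 was found for 12 of the 36, and for 8 with those means, beside 7.21% of all genes. In 12 all tyrosol values lay above all control values and in 2 below, beside 6.92% and 6.78% of all genes. The 3 called genes were mlt-11, a protease inhibitor gene of the moult, and noah-1 and noah-2, which encode zona pellucida proteins of the apical matrix. On the log2 scale mlt-11 rose by 1.16 (SE 0.18), noah-1 by 0.86 (SE 0.16) and noah-2 by 0.83 (SE 0.13). Limma called noah-2 (adjusted p = 0.0499), and with the replicate block all 3 (adjusted p = 0.046, 0.032 and 0.020). The calls of noah-1 and noah-2 were lost without any 1 tyrosol array, where the count was 1 of 36, and without control replicate 2 the count was 4 of 36. Without probe sets whose probes are shared, mlt-11 was read on another one, differed by 0.48 and was not called.

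Genes of collagen processing and of cuticle cross-linking were not called on their brightest probe sets. The list holds propeptide proteases, prolyl hydroxylase and disulphide enzymes, the oxidase and peroxidase genes that cross-link the cuticle, and a protease inhibitor gene. Of 14 measured, 7 were above 0 and 7 below, with a median of 0.015. An unadjusted limma p under 0.05 was found for 5 of them, most with a positive difference, beside 7.21% of all genes. With the mean of each gene's probe sets that count was 2. In 5 of the 14 all tyrosol values lay above all control values and in 2 below, beside 6.92% and 6.78% of all genes. The lowest limma p was that of dpy-18, a prolyl 4-hydroxylase subunit that stabilises the collagen helix, at 6.28, 6.57 and 6.39 in tyrosol worms, against 5.88, 5.65 and 5.94 in control worms. Its groups did not overlap and the difference was 0.59 (SE 0.12, limma adjusted p = 0.12). The other 2 probe sets of dpy-18 differed by 0.22 (SE 0.10) and 0.27 (SE 0.099). Other secreted or membrane-bound metalloproteases, the ADAM, ADAMTS, matrix metalloprotease and neprilysin families, had 40 measured genes, with a median of -0.0048. Of these the rank product and limma called 0 in either direction, with 1 at an unadjusted limma p under 0.05, beside 7.21% of all genes. Without tyrosol replicate 2 that count was 4, beside 1559 of the 17118 genes. Without tyrosol replicate 3 it was 2, beside 1199. Without any 1 control array it was 0, beside 916 to 1077, and the median was 0.032 without control replicate 2. In that list the lowest p belonged to the ADAM gene unc-71, at -0.33 (SE 0.13, limma adjusted p = 0.64).

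Beside hch-1, sperm genes and 3 genes of the embryo list were called higher on the tyrosol arrays. The rank product called 23 of 33 measured sperm markers higher, beside 0.865% of all genes. Most of these are major sperm protein genes whose near-identical copies share probes. The mean level of the sperm list was 4.16 to 4.27 on the tyrosol arrays and 2.88 to 3.56 on the control arrays. Control replicate 2 was the highest control, as it was for hch-1. That array was also the highest control in the moulting, other metalloprotease, epidermis and male soma lists. It was not in the embryo, pharynx, intestine and collagen processing lists. The lowest limma p of that list was that of msp-33, at 1.21 (SE 0.12, adjusted p = 0.025). The median difference of the list was 1.18. Without probe sets of shared probes 6 of these genes could be read, of which the rank product called 1, and their median was 0.29. Limma called 8 of the 33, against 14 with the replicate block, 19 without control replicate 2, and 0 without tyrosol replicate 1 or 3 or control replicate 1 or 3, where 24 to 26 had an unadjusted p under 0.05.

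Of 25 measured embryo markers the rank product called 3 higher, beside 0.865% of all genes. They were noah-1, noah-2 and dpy-14, a collagen gene expressed in the embryo. All 3 were put on the list with their rise known, so the count is not independent evidence. The calls of noah-1 and noah-2 are also the same as those in the moulting list. The signal of dpy-14 was 5.23, 5.43 and 5.25 in tyrosol worms, against 4.13, 4.73 and 4.28 in control worms, a difference of 0.92 (SE 0.16). Limma called noah-2 alone of the 25, and all 3 with the replicate block, where dpy-14 had an adjusted p of 0.023. As in hch-1, replicate 2 was the highest of its controls and replicate 1 the lowest. Without any 1 tyrosol array the rank product and limma called 0 of the 25, with 5 to 7 at an unadjusted limma p under 0.05. Over all 17118 genes 1199 to 1559 had such a p there. Without control replicate 2 the rank product called 4 of the 25. The list's mean level was 3.92 to 3.98 on the tyrosol arrays and 3.74 to 3.82 on the control arrays, and its median difference was 0.13, which became -0.022 with the mean of each gene's probe sets. The other 22 genes were not called, with 14 above 0 and 8 below, differences from -0.45 to 0.59 and a median of 0.067. RMA gives no value of 0, and 9 of the 25 lay below the median probe set. The part of embryos or sperm in the rise of hch-1 was not tested.

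Lists for the tissues in which other astacins act showed smaller shifts than the sperm list. The median difference of the epidermis list was 0.10, beside 0.067 in the embryo list without its called genes. With the mean of each gene's probe sets the epidermis median was 0.029. Of 22 epidermis markers the rank product called 1 higher, beside 0.865% of all genes. It was wrt-10, a hedgehog-related gene, at 0.74 (SE 0.13), a call lost without any 1 tyrosol array or control replicate 1. Without tyrosol replicate 2 the cuticle collagen gene dpy-5 was called lower instead, at -0.79 (SE 0.10, limma adjusted p = 0.033). The list's mean level was 3.92 to 4.02 on the tyrosol arrays and 3.80 to 3.98 on the control arrays, and the lowest limma p was that of the junction gene ajm-1, at 0.62 (SE 0.099, adjusted p = 0.058). With the replicate block both tests called wrt-10 and ajm-1 higher (limma adjusted p = 0.033 and 0.042). The ajm-1 probe set carries the suffix _x_at, and with the mean of its probe sets ajm-1 differed by 0.24 and was not called. Without probe sets ending in _x_at or _f_at it was read on another one, at 0.63, and called higher by the rank product alone. Of 24 pharynx markers the rank product and limma called 0, with 6 at an unadjusted limma p under 0.05, beside 7.21% of all genes. Their mean levels were 3.18 to 3.33 with tyrosol and 3.15 to 3.16 in the controls. The pharyngeal myosin gene myo-1 had the lowest p there, at 0.46 (SE 0.14, adjusted p = 0.43). Of 18 intestine markers both tests called 0, with 2 at an unadjusted limma p under 0.05, beside 7.21% of all genes. The intestine list had mean levels of 7.38 to 7.55 with tyrosol and 7.46 to 7.51 in the controls. The gut regulator elt-2 had the lowest p, at -0.29 (SE 0.088, adjusted p = 0.44). Of 14 markers of the male soma both tests called 0, with 1 at an unadjusted limma p under 0.05, beside 7.21% of all genes. The male soma list had mean levels of 2.20 to 2.38 with tyrosol and 2.28 to 2.44 in the controls. The lowest p was that of cwp-5, a gene of male sensory neurons, at -0.31 (SE 0.12, adjusted p = 0.63).

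**Figure D4:**
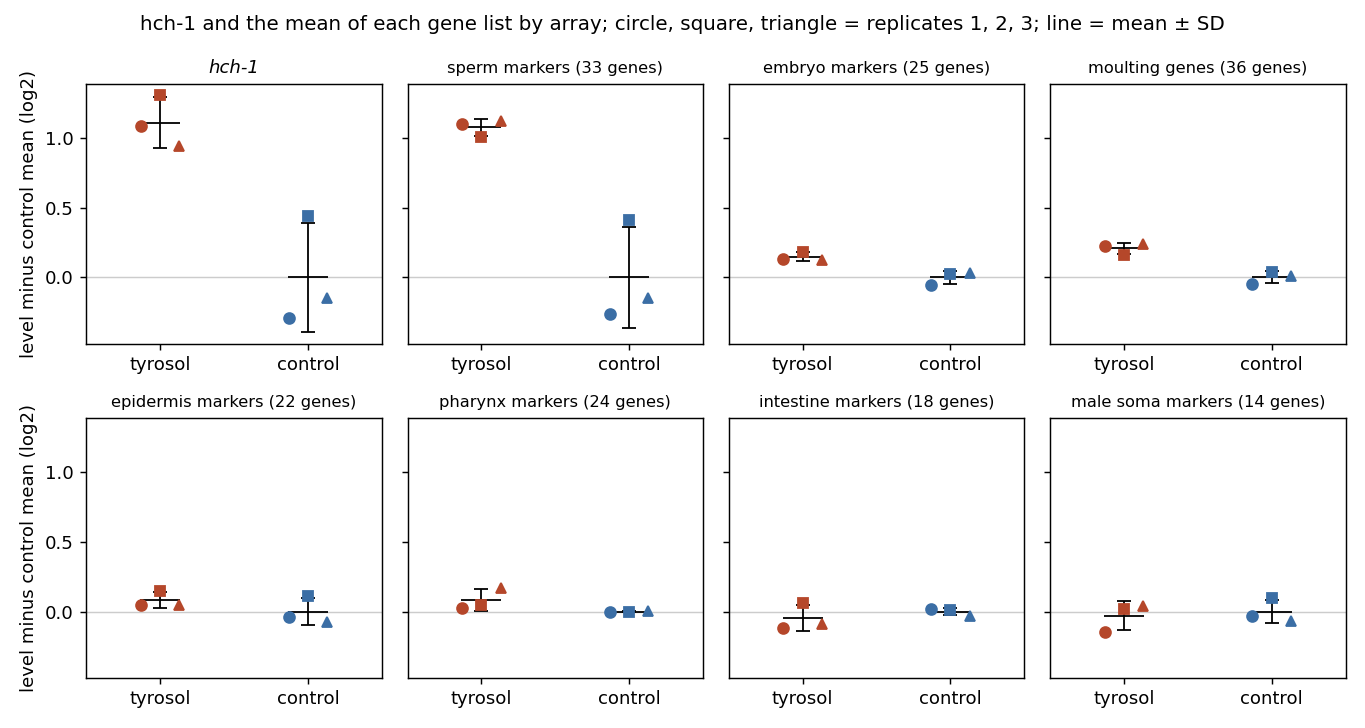
Level of hch-1 and mean level of 7 gene lists on each array, as the distance from the control mean (log2, y axis), with tyrosol arrays to the left of control arrays. Points are arrays, with replicates 1, 2 and 3 as circle, square and triangle, and bars give the mean ± SD. The sperm list lies 1.01 to 1.12 above the control mean on the tyrosol arrays, the moulting list 0.16 to 0.24 and the embryo list 0.13 to 0.18. Without the 3 genes listed with their rise known the embryo list lies 0.032 to 0.073 above it, and its groups overlap. The moulting list also holds noah-1 and noah-2, which are among those genes. The pharynx list lies 0.026 to 0.17 above the control mean, while the epidermis, intestine and male soma lists overlap between groups.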

How the data were processed

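The authors deposited log2 values, 1 for each probe set on each array, made with RMA in the Bioconductor package affylmGUI, per the series' design text and the submitters' processing notes. The version and the genome build behind the annotation were not given in the sources used here. That the logarithm is to base 2 was read off the range of the values. Background and normalisation could not be varied without scanner files, which were not used here. After leaving out 77 control probe sets, 22548 were tested. Gene names came from the platform annotation, updated through Entrez numbers and a RefSeq gene table (assembly WBcel235, used for names, chromosomes and gene order alone): 20766 probe sets name 1 gene, 887 several and 895 none. A gene is represented by its brightest probe set that names it alone.

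The rank product was programmed in Python 3.11.15 (numpy 2.4.6): all 9 tyrosol-minus-control differences were ranked, with 100 permutations within arrays, and a false discovery rate under 0.05 was called. Limma 3.58.1 (R 4.3.3) gave differences, SEs, intervals and Benjamini-Hochberg adjusted p-values over all probe sets. Both were tested on a single simulated data set of independent normal noise, where the rank product, unlike limma, made more false calls than its threshold allows. The deviations that the real arrays share were not simulated.

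Same-numbered arrays deviated together (r = 0.11, 0.37 and 0.26 for replicates 1, 2 and 3), so a fit with the replicate block was run, although tyrosol replicate 1 correlated more with control replicate 3 (r = 0.28) than with its own number. The pairing rests on the numbers in the labels and on this check. The members and the gene lists (moulting genes, collagen processing and cross-linking genes, DPY-31 collagen partners, other metalloproteases, and markers of embryo, sperm, male soma, epidermis, pharynx and intestine) were chosen with earlier results of these data known. Values per array are given for called members, members with a known role, the 6 largest and 6 most negative differences and the 5 brightest members. From the lists, called genes, the DPY-31 partners and the gene of lowest limma p are named. The gene dpy-5 was named after its values were seen. No sequence is shown.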

Additional observations from a re-analysis of the deposited data

How the results depend on the processing

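The rank product called hch-1 higher, and 0 astacins lower, under every alternative that could read hch-1: each array left out, the replicate block, another random seed, arrays centred on their medians, the brighter part of the probe sets, probe sets averaged per gene, and both replicate 2 arrays left out. Without probe sets ending in _x_at, _s_at or _f_at the count was 0 of 31, because the only probe set of hch-1 is removed. Then 1 astacin was wholly higher with tyrosol and 4 were wholly lower. These are shares of 3.23% and 12.9%, beside 6.71% and 6.47% of all genes. With _s_at kept, a choice made after seeing the data, the rank product called 1 astacin higher. Limma called 1 astacin, hch-1, with the replicate block, without control replicate 2 and without both replicate 2 arrays, and 0 otherwise. Without single arrays, astacins with groups that did not overlap numbered 3 to 6 higher, or 8.33% to 16.7%, beside 9.79% to 12.2% of all genes. Those lower numbered 4 to 10, or 11.1% to 27.8%, beside 10.9% to 14.6% of all genes. Without both replicate 2 arrays they numbered 7 higher and 10 lower, or 19.4% and 27.8%, where 18.8% and 20.4% of all genes did so. Among brighter probe sets, where 8 members remained, 2 were wholly higher and 2 wholly lower. Each is a share of 25%, beside 9.65% and 8.7% of all genes. The block changed no other call of a member, and of the gene lists those named beside their counts. The family's median difference ran from -0.090 to -0.024 without single arrays. Small differences changed sign without single arrays in nas-11 (-0.10 to 0.033), nas-32 (-0.0013 to 0.22), nas-36 (-0.13 to 0.020), nas-37 (-0.11 to 0.24), nas-38 (-0.081 to 0.079), nas-39 (-0.11 to 0.085) and nas-9 (-0.28 to 0.049). Without both replicate 2 arrays nas-11, nas-37 and nas-9 stood at 0.051, -0.062 and 0.14, and toh-1 at 0.025 with the mean of its probe sets. None of these was called, and the cause was not tested. Over all genes the rank product called 148 higher and 4 lower, against 71 to 77 and 1 to 26 without single tyrosol arrays, 95 and 3 without probe sets of shared probes, and 0 lower without control replicate 1 or 3, where limma called 0 of 17118 and 979 and 916 had an unadjusted p under 0.05. Limma called 58 higher, against 121 with the block, 30 without probe sets of shared probes, and 0 without tyrosol replicate 1 or 3, with 1204 and 1199 at an unadjusted p under 0.05. Low signal limits 28 of the 36 genes.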
